A study of Mus musculus with 4 samples.

Results

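The constant regions of the immunoglobulin light chains were followed in 4 genes, Igkc for kappa and Iglc1, Iglc2 and Iglc3 for lambda, of the 31053 genes counted. The genes were taken by name, and all 4 were detected in every library. Mouse splenic B220+IgD- cells had been sorted and profiled by droplet single-cell RNA sequencing of transcript 3′ ends on day 10 of the response to sheep red blood cells (SRBC), a T-cell dependent antigen that induces germinal centers (GC). Mice were 8-week-old females on a C57BL/6J background, and Cγ1-cre was present in all of them. The genotypes were cre alone (WT), Crebbp fl/+ (C), Kmt2d fl/+ (K), or Crebbp fl/+ together with Kmt2d fl/+ (CK). The Cγ1 locus drives cre in B cells that have begun to transcribe Cγ1, most of them after T-cell dependent activation, so B cells outside the response and T cells of these mice are not the cells in which the floxed alleles are meant to be lost. Each genotype was 1 mouse and 1 library. A difference between genotypes therefore has no replicate check, no test between genotypes was run, and all intervals are 95% intervals that cover counting error only.

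Each B cell receptor pairs heavy chains with light chains of a single kind, kappa or lambda. Light chain genes rearrange after the heavy chain, kappa usually before lambda, and a cell that makes a working chain normally keeps to it, which is called isotype exclusion. Kappa dominates strongly in mice of this background, and the small lambda locus splits into clusters in which variable genes join mainly to the constant genes that lie downstream of them. Plasma cells, which secrete antibody, transcribe their light chain at very high levels.

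Igkc lies on chromosome 6 of the mm10 build, and its single exon spans chr6:70726435-70726966 on the plus strand, of which the first 323 bases are coding and 209 are 3′ UTR. The lambda genes lie on the minus strand of chromosome 16, with exons at chr16:19061618-19062071 for Iglc1, chr16:19065230-19065681 for Iglc3 and chr16:19198396-19198853 for Iglc2. Going along the minus strand the order is Iglv2, Iglv3, Iglc2, Iglv1, Iglc3 and Iglc1. The last 150 coding bases with the stop codon are shown for the 4 genes because the reads lie near transcript ends, and the likeness of these ends bears on how far the genes can be told apart. Capitals in Iglc1 and Iglc3 mark bases that differ from Iglc2 at the same distance from the stop codon.
Igkc (chr6:70726608-70726757, plus strand): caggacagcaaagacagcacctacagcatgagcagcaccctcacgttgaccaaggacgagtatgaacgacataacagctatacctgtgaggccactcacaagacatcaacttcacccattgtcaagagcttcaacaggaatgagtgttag
Iglc1 (chr16:19061752-19061901, minus strand): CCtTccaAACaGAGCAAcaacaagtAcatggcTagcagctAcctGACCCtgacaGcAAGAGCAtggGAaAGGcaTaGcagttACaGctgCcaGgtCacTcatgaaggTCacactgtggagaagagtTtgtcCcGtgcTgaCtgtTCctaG
Iglc2 (chr16:19198536-19198685, minus strand): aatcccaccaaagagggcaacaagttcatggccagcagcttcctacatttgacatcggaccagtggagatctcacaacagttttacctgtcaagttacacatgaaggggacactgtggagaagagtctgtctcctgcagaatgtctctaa
Iglc3 (chr16:19065365-19065514, minus strand): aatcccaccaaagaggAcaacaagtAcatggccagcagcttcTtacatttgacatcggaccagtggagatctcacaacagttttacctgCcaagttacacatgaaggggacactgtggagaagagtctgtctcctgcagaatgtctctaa

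In these windows Iglc3 differed from Iglc2 at 4 bases and Iglc1 differed from Iglc2 at 52 bases. Over the whole coding part Iglc2 and Iglc3 were 96.2% identical, with a longest shared run of 79 bases, and their 3′ UTRs were 90.0% identical, with a longest shared run of 39 bases. Iglc1 and Iglc2 were 73.3% identical in the coding part and 51.8% in the 3′ UTR. The split between Iglc2 and Iglc3 is therefore uncertain where reads fell in shared stretches, whereas kappa, Iglc1 and the pair of Iglc2 and Iglc3 differ along the whole transcript end. A long noncoding RNA, Gm30211, is annotated across Igkc on the same strand, and the antisense transcript 2010309G21Rik is annotated across Iglc1 and Iglc3.

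Depth was uneven between libraries. They held between 8071 and 12852 barcodes and between 33270825 and 39803865 UMIs (unique molecular identifiers, each standing for 1 captured transcript), and 143 of 38866 distinct barcode sequences occurred in more than 1 library. The deposited annotation named 9804 GC B cells in 6 subtypes: early centroblasts, centroblasts (CB), cells in transition from CB to centrocytes (CC), CC, recycling cells and prememory cells. Outside it, clusters made without immunoglobulin genes were named GC B-like, non-GC B-like, plasma-like or T-like from marker lists, and 23.3% of barcodes stayed in no class. T-like cells were present although the sort was on B220. Their 10 markers summed to 9200 to 10009 CPM per library, CPM being the UMIs of a gene scaled to a common total per sum, and to 33.2 to 169 CPM in the B and plasma classes. Plasma-like cells had 44514 to 47357 CPM of their 10 markers.

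The label of 1 subtype did not match the other GC cells. Of 578 prememory cells, 561 (97.1%) fell in clusters of non-GC B-like cells. The sum of 8 GC markers was 136 to 226 CPM in prememory cells, 121 to 183 CPM in non-GC B-like cells and 2052 to 2294 CPM in the other annotated cells. By 9 non-GC B markers, prememory cells (5716 to 6096 CPM) were instead nearer the other annotated cells (4884 to 5967 CPM). Non-GC B-like cells had 9774 to 11164 CPM of these 9 markers, so prememory cells matched neither group on both lists. The prememory cells were therefore kept apart in what follows, and values over all annotated cells are given with and without them where they matter.

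Igkc was the most abundant of the 4 transcripts in every class. In annotated GC B cells it was at 13042 CPM for WT, 14939 CPM for C, 14183 CPM for K and 15329 CPM for CK, or 14373 ± 1007 CPM (mean ± SD, n = 4 libraries). In non-GC B-like cells it was at 17568, 18522, 21183 and 19876 CPM in the same order, or 19287 ± 1579 CPM. The non-GC B-like level was the higher one in all 4 libraries, by 1.34 ± 0.11 fold within a library. Counted per cell the order turned, and GC cells also had more UMIs in all. Non-GC B-like cells had 27.6 to 44.1 Igkc UMIs per cell and GC cells 59.8 to 69.7, a ratio of 0.570 ± 0.093, with median depths of 1222 to 2180 UMIs in the former and 3653 to 4931 UMIs in the latter.

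Plasma-like cells stood far above both. Igkc was at 313353 CPM in the 48 plasma-like cells of WT, 328527 CPM in 55 cells of C, 353150 CPM in 68 cells of K and 351608 CPM in 71 cells of CK. These levels were 31.3%, 32.9%, 35.3% and 35.2% of all UMIs of the class. Within a library the plasma-like level was 23.5 ± 1.27 times that of annotated GC B cells, and per cell the ratio was 66.4 ± 8.59. A transcript at this level lowers the CPM of all others in the class, and scaled to the UMIs of non-immunoglobulin genes the ratio was 42.1.

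T-like cells, which carry no rearranged light chain, gave the background of free RNA and of the doublets left among them. A cluster of 960 barcodes with GC B and T markers, of which 91.9% were called doublets, was not named T-like. Its doublets are not in this background. Igkc was at 754, 825, 678 and 1314 CPM there in WT, C, K and CK. These are low values against every B class, although 77.5% to 87.3% of T-like cells held at least 1 Igkc UMI, at median depths of 1979 to 3295 UMIs. Only 1.32% to 2.37% of T-like cells reached the threshold for a leading chain used below.

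Among the annotated subtypes the Igkc level moved within a narrow range. It averaged 13415 ± 738 CPM in early centroblasts, 13346 ± 1374 CPM in CB, 15320 ± 1312 CPM in CB-to-CC cells, 14609 ± 1067 CPM in CC and 12268 ± 861 CPM in prememory cells. Recycling cells, 8 to 49 per library, averaged 11980 ± 2601 CPM. In descending order of the means the subtypes ran from CB-to-CC cells over CC, early centroblasts, CB and prememory cells to recycling cells, and neighbours in this order differed by less than the larger of their SDs, except CC and early centroblasts, whose ranges overlapped. GC B-like cells outside the annotation, which are deeper, averaged 12089 ± 1394 CPM.

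The lambda genes followed another pattern. Their sum was at 3007, 3243, 3036 and 2924 CPM in annotated GC B cells of WT, C, K and CK and at 8241, 9085, 10796 and 10715 CPM in non-GC B-like cells. The groups of 4 values did not overlap, and the fold within a library was 3.19 ± 0.49, against 1.33 ± 0.09 when counted per cell. Prememory cells lay between, at 4971, 6315, 8316 and 6365 CPM.

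Each lambda gene was higher in non-GC B-like than in annotated GC B cells in all 4 libraries by CPM. Iglc1 was at 1401 ± 98.4 CPM in annotated GC B and 4383 ± 753 CPM in non-GC B-like cells (n = 4 libraries each). Iglc2 was at 784 ± 83.8 and 3193 ± 335 CPM, and Iglc3 at 867 ± 109 and 2133 ± 227 CPM. Per cell the fold of Iglc3 was 1.04 ± 0.10, within its spread of no difference, while those of Iglc1 and Iglc2 were 1.31 ± 0.10 and 1.72 ± 0.17. In T-like cells the lambda sum was at 157 to 263 CPM. These class differences are descriptions, since the deposited subtypes had been named from profiles that include all genes.

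In plasma-like cells the lambda sum varied with the library. It was 9678 CPM for WT, 14095 CPM for C, 14924 CPM for K and 5186 CPM for CK. Iglc1 was at 1761, 5301, 11863 and 1670 CPM, a range set by few cells. Iglc2 was at 7040, 7457, 1930 and 2618 CPM, high in WT and C and low in K, where Iglc1 was highest. Iglc3 stayed between 877 and 1337 CPM, and its level relative to annotated GC B cells was 1.23 ± 0.20 by CPM. Scaled to the UMIs of non-immunoglobulin genes this ratio was 2.21 ± 0.45, and per cell it was 3.43 ± 0.39. On both of these scales it was above 1 in all 4 libraries.

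**Figure D1:**
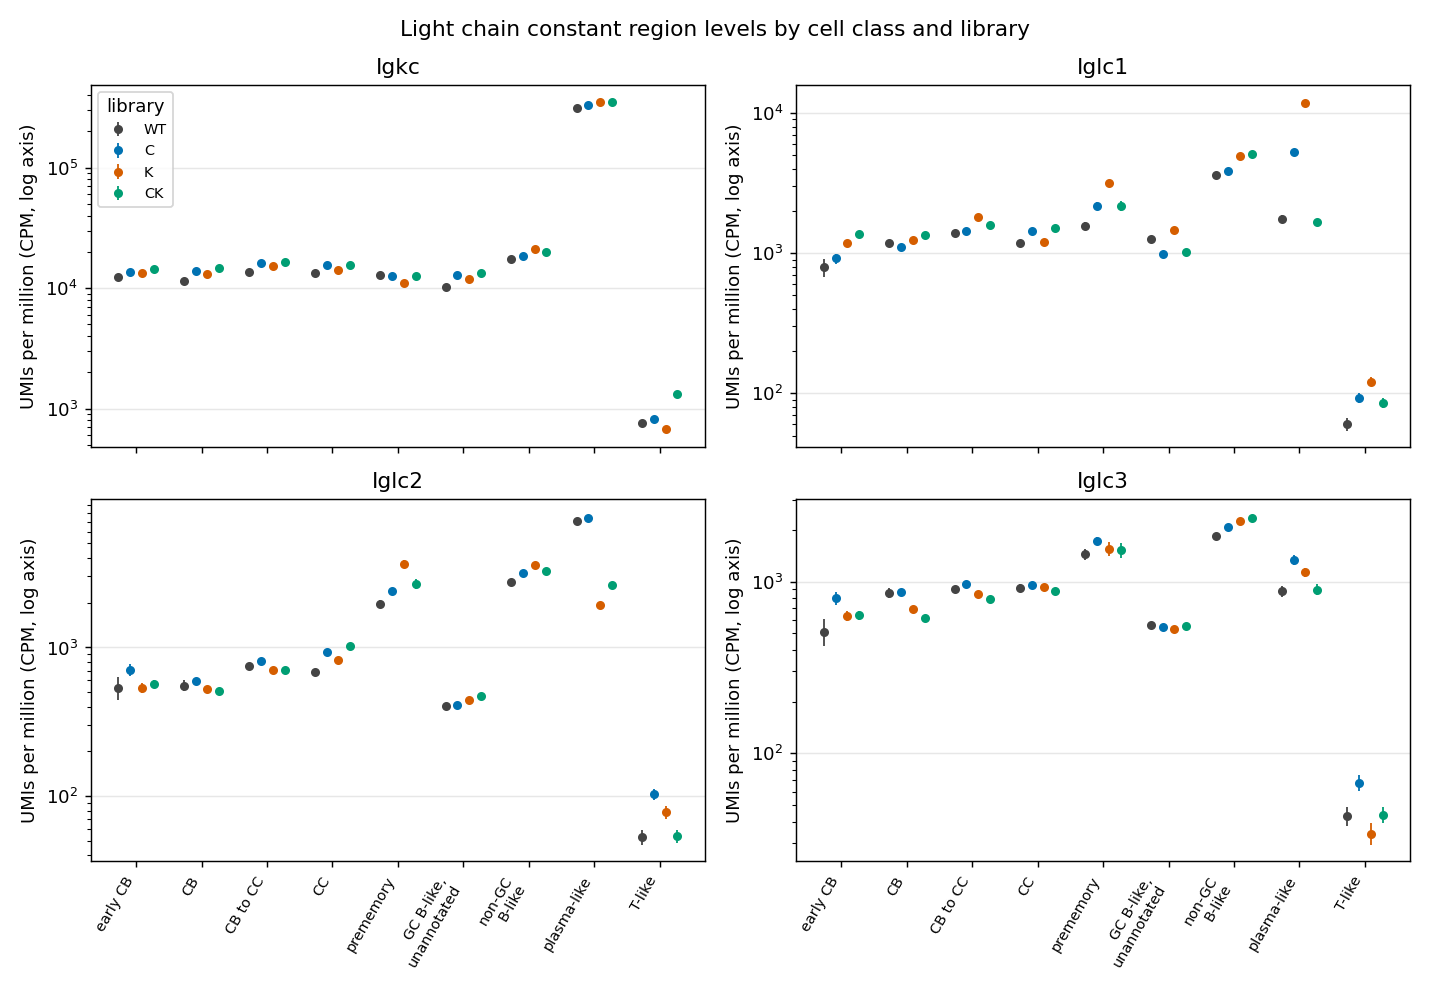
Level of Igkc, Iglc1, Iglc2 and Iglc3 in CPM (log axis) by class, with 1 point per library coloured by genotype and bars for exact Poisson 95% intervals. Igkc in plasma-like cells lies between 313353 and 353150 CPM, and each lambda gene is higher in non-GC B-like cells than in the annotated classes other than prememory cells.

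A cell was called led by kappa or by lambda when it held at least 10 UMIs over the 4 genes and Igkc exceeded the sum of Iglc1, Iglc2 and Iglc3, or the reverse. This gave a lead to 98.2% to 98.6% of annotated GC B cells and 96.2% to 98.4% of non-GC B-like cells. Kappa led in most cells of every B class. Among annotated GC B cells, lambda led in 93 of 1205 cells for WT (7.72%, interval 6.27 to 9.37%), 143 of 2012 for C (7.11%, 6.02 to 8.32%), 170 of 2541 for K (6.69%, 5.75 to 7.73%) and 275 of 3881 for CK (7.09%, 6.30 to 7.94%). The 4 libraries thus lay within 1.03 points of each other.

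Relative to WT the share in annotated GC B cells differed by -0.61 points in C (interval -2.59 to 1.27), -1.03 points in K (-2.93 to 0.75) and -0.63 points in CK (-2.46 to 1.04). All 3 intervals include 0. With 1 mouse each this is a comparison of libraries, and it says nothing on the spread between mice. The intervals, like all those on shares here, take each cell as an independent draw. Cells of 1 clone share a light chain and clones were not identified, so the intervals may be too narrow.

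The subtypes of the GC proper had shares under 9%. Lambda led in 7.78%, 5.29%, 4.85% and 6.40% of CB in WT, C, K and CK. In CC it led in 4.27%, 5.77%, 6.12% and 5.98%. The difference CC minus CB was -3.51, 0.48, 1.26 and -0.42 points, with intervals that include 0 in all 4 libraries. CB-to-CC cells had 8.66%, 6.25%, 7.37% and 7.59%, above CB and CC in all 4 libraries. The interval of the difference lay above 0 against CC in WT (4.39 points, 0.87 to 7.85) and against CB in K (2.52 points, 0.02 to 4.88), and it included 0 in the other 6 comparisons. Thinned to 2000 UMIs, the CB-to-CC share in C was 5.08%, below CB (5.34%) and CC (6.03%). In CK it was then 6.57%, below CB (6.99%), and in WT (7.55%) and K (7.50%) it stayed above both. Early centroblasts averaged 5.36 ± 0.91% without thinning. In recycling cells 0 of 8, 0 of 10, 1 of 15 and 2 of 49 cells were led by lambda, too few to place them.

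Prememory cells stood apart from the other annotated cells. Lambda led in 21 of 142 cells for WT (14.8%), 39 of 221 for C (17.6%), 19 of 90 for K (21.1%) and 21 of 109 for CK (19.3%), against 6.77%, 5.81%, 6.16% and 6.73% of the other annotated cells. The difference was 8.02 points for WT (interval 2.36 to 15.1), 11.8 for C (6.91 to 17.6), 14.95 for K (6.99 to 24.9) and 12.5 for CK (5.55 to 21.2). It was positive with an interval above 0 in each library. Of the 11 led prememory cells that fell in GC B-like clusters 1 was lambda-led, and of the 551 in non-GC B-like clusters 99 were.

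Non-GC B-like cells outside the annotation also had high shares. Lambda led in 303 of 1789 cells for WT (16.9%, interval 15.2 to 18.8%), 622 of 3150 for C (19.7%, 18.4 to 21.2%), 290 of 1371 for K (21.2%, 19.0 to 23.4%) and 459 of 1993 for CK (23.0%, 21.2 to 24.9%). This exceeded annotated GC B cells by 9.22 points for WT (6.84 to 11.5), 12.6 for C (10.8 to 14.4), 14.5 for K (12.1 to 16.9) and 15.9 for CK (13.9 to 18.0). The difference to prememory cells was 2.15, 2.10, 0.04 and 3.76 points, with intervals that include 0 in all 4 libraries. With each cell thinned to 2000 UMIs the shares were 13.6%, 13.7%, 15.5% and 19.4% in non-GC B-like cells, 15.4%, 17.6%, 17.8% and 23.5% in prememory cells and 7.06%, 6.46%, 6.82% and 6.77% in annotated GC B cells, after 651, 2399, 1030 and 1859 of the non-GC B-like cells were left out as too shallow.

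The non-GC B-like shares were higher in the mutant libraries than in WT. The difference was 2.81 points in C (interval 0.53 to 5.04), 4.22 in K (1.41 to 7.05) and 6.09 in CK (3.51 to 8.66). Thinned to 2000 UMIs it was 0.13 (-2.98 to 3.32), 1.91 (-2.26 to 6.52) and 5.84 points (0.25 to 12.2). Median depth was lower in the mutant libraries, at 1584, 1646 and 1222 UMIs against 2180 in WT. The part of depth, of the cells left out and of the mouse in these differences was not tested, and mouse and genotype cannot be told apart.

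The share also differed among clusters of non-GC B-like cells. In the cluster with Vpreb3, Ly6d and Cplx2 among its leading genes, lambda led in 23.9% of led cells for WT, 29.4% for C, 27.1% for K and 30.8% for CK. In the cluster led by Cr2, the complement receptor high on marginal zone B cells, and Cd1d1 it led in 14.6%, 13.9%, 16.0% and 14.2%. The latter was lower by 9.36, 15.5, 11.1 and 16.6 points, with intervals below 0 in each library. A cluster led by Cd55 and Ccr6 averaged 14.99 ± 1.90%, one with Fam129c and Fcer2a among its leading genes 14.96 ± 1.91%, one led by Egr3 and Il4i1 19.2 ± 2.67%, and one led by the interferon-induced Ifit3 13.4 ± 6.79%. The cluster with Vpreb3 was the shallowest of these, with median depths of 1088 to 1917 UMIs, and thinned to 2000 UMIs it had 15.4%, 18.5%, 25.5% and 21.1% over 234, 54, 51 and 19 led cells. The cluster led by Cr2 then had 15.5%, 12.9%, 14.7% and 20.8% over 219, 334, 102 and 77 led cells, so that the gap was no longer seen in WT and CK and the intervals of both clusters overlapped in every library.

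Plasma-like cells were led by kappa in all but a few cells. Lambda led in 2 of 48, 2 of 55, 2 of 68 and 1 of 71 cells, or 4.17%, 3.64%, 2.94% and 1.41%. The shares were lower than in non-GC B-like cells by 12.8 points for WT (interval 2.54 to 16.9), 16.1 for C (7.11 to 19.6), 18.2 for K (10.6 to 21.6) and 21.6 for CK (15.2 to 24.0). Against annotated GC B cells the difference was 3.55, 3.47, 3.75 and 5.68 points lower, and its intervals include 0.

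**Figure D2:**
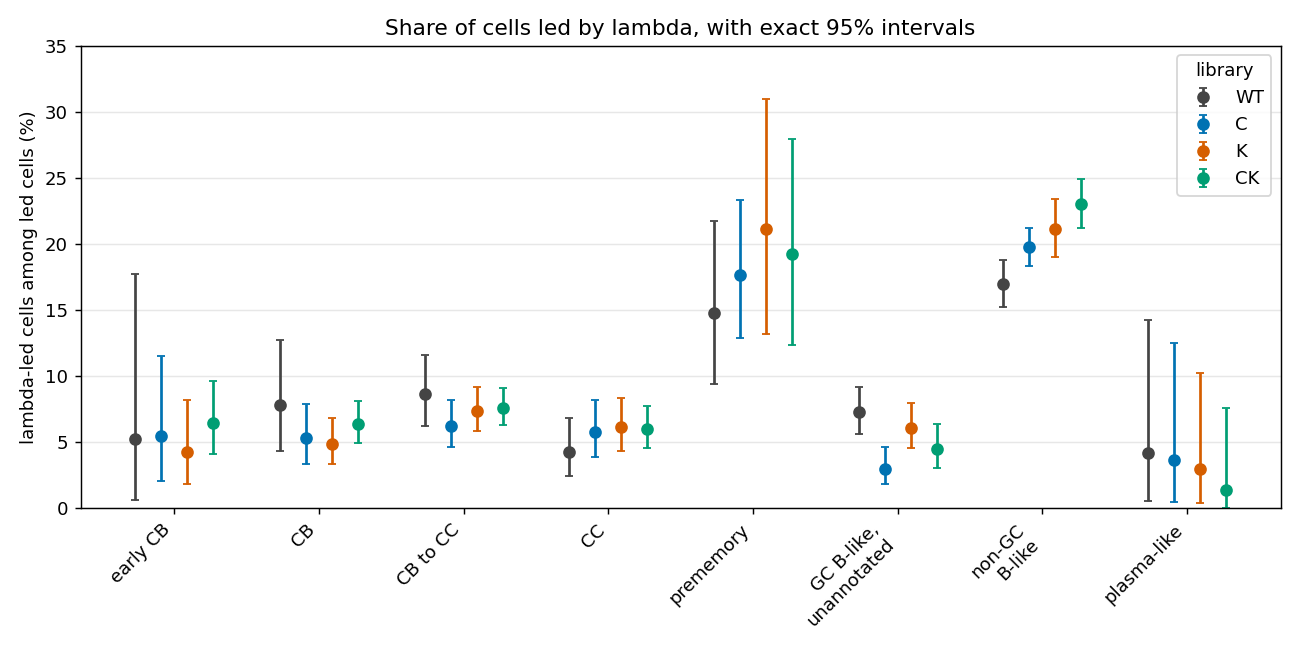
Percent of led cells that are led by lambda in each class, 1 point per library with exact 95% intervals. Non-GC B-like cells lie between 16.9% and 23.0% and prememory cells between 14.8% and 21.1%, above the other annotated cells of the same library.

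Transcripts of the other light chain were common in cells led by either one. Kappa-led annotated GC B cells carried lambda transcripts at 2471 CPM for WT, 2620 CPM for C, 2389 CPM for K and 2275 CPM for CK, or a median of 10, 9, 10 and 7 UMIs per cell. This was 15.8, 9.95, 10.2 and 12.4 times the level in T-like cells of the same library. In kappa-led non-GC B-like cells lambda was at 5352, 5860, 6438 and 6274 CPM, which was 22.3 to 34.2 times the T-like level.

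Detection was compared at equal depth. Thinned to 2000 UMIs per cell, at least 1 lambda UMI was present in 95.5% to 96.6% of kappa-led annotated GC B cells and in 99.4% to 100% of kappa-led non-GC B-like cells. In T-like cells it was present in 21.3% to 26.4%, and in 25.7% to 37.3% before thinning. The B cell values were far above this background in each library. The part of doublets and free RNA in the B cell values was not tested further. Lambda-led annotated GC B cells carried Igkc at 2940, 3621, 3233 and 3364 CPM, in each library more than the lambda level of kappa-led cells. As a fold over T-like cells it was smaller, at 2.56 to 4.77. The T-like level itself was higher for Igkc (678 to 1314 CPM) than for lambda (157 to 263 CPM).

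The minor lambda transcripts of kappa-led cells had another make-up than those of lambda-led cells. In kappa-led annotated GC B cells, Iglc1 gave 34.6% to 42.8% of the lambda UMIs, Iglc2 26.4% to 29.3% and Iglc3 30.3% to 36.4%. In lambda-led cells of the same class, Iglc1 gave 56.9% to 70.2%, Iglc2 17.4% to 22.6% and Iglc3 12.3% to 20.5%. The ranges of all 3 genes did not overlap between kappa-led and lambda-led cells.

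Many cells held a sizeable amount of both chains. At least 10 UMIs of each chain, with the lesser one making up at least 20%, were found in 28.6%, 26.2%, 24.4% and 18.0% of annotated GC B cells in WT, C, K and CK. In non-GC B-like cells the shares were 41.8%, 36.2%, 39.4% and 25.6%. In prememory cells they were 51.7%, 41.3%, 46.2% and 30.4%. In T-like cells, which do not include the cluster of called doublets with GC B and T markers, they were 0.13% to 0.52%.

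These shares moved with thinning. Thinned to 2000 UMIs, they were 10.1%, 11.2%, 9.06% and 7.29% of annotated GC B cells and 34.7%, 38.0%, 35.4% and 39.2% of non-GC B-like cells. CK, lowest of the non-GC B-like values before thinning, was then highest, with 1859 of its 2071 cells left out as too shallow, so that depth and the choice of cells cannot be told apart. In plasma-like cells the unthinned shares were 0%, 5.45%, 5.88% and 0% of 48, 55, 68 and 71 cells, and a count of 0 allows up to 6.25% in WT and 4.23% in CK. Doublets called by Scrublet were more frequent among annotated GC B cells with both chains than among the rest, at 2.85% against 1.71% for WT, 10.5% against 3.52% for C, 2.86% against 1.43% for K and 4.64% against 1.91% for CK, and without called doublets the mean share was 23.7% in place of 24.3%.

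The lambda fraction within a cell was spread over the whole range, with a main peak at low lambda and a smaller one at full lambda. Cells with at least 95% lambda made up 4.81% to 7.45% of non-GC B-like cells, 2.10% to 8.70% of prememory cells and 1.34% to 1.76% of annotated GC B cells, in each library more than cells with 90% to 95%. Its median was 16.3%, 15.4%, 14.3% and 13.3% in annotated GC B cells of WT, C, K and CK and 24.3% to 26.7% in non-GC B-like cells. Only 2.38% to 2.78% of annotated GC B cells had over 80% lambda, against 9.35% to 13.2% of non-GC B-like cells. In plasma-like cells the median was 1.47% to 1.70%, although kappa-led plasma-like cells held a median of 41.5 to 67 lambda UMIs.

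**Figure D3:**
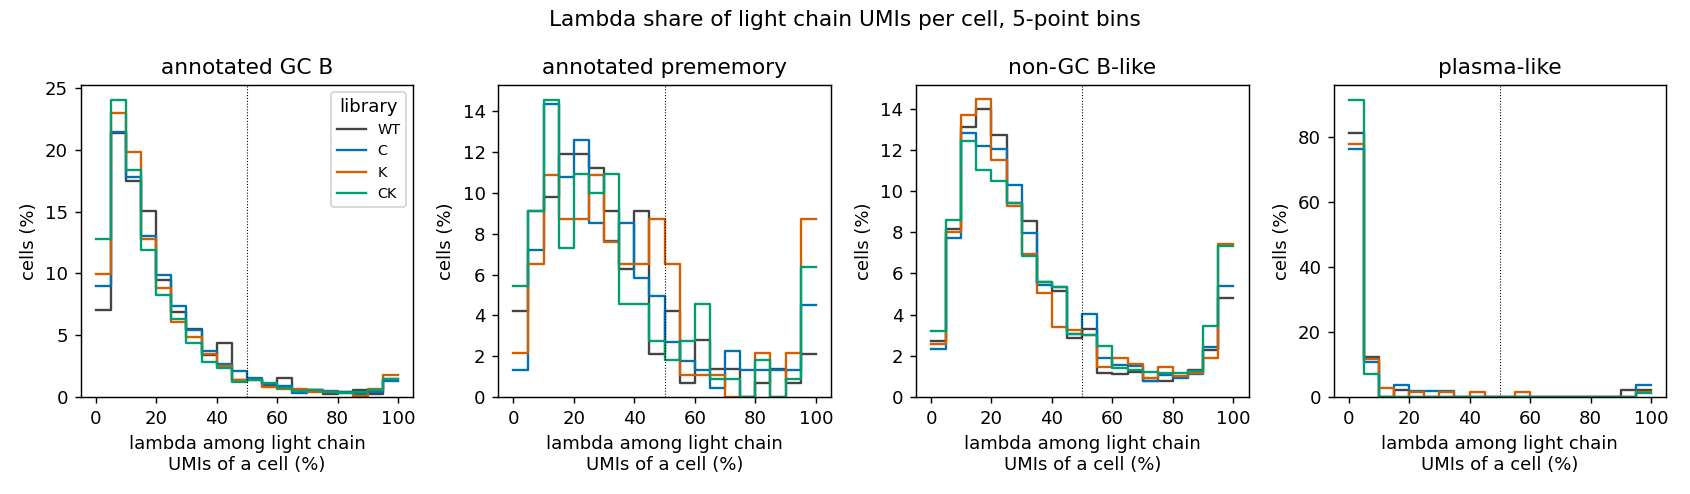
Distribution of the lambda fraction among the light chain UMIs of single cells (percent of cells in each bin), 1 line per library, for cells with at least 10 light chain UMIs. The panels show annotated GC B, prememory, non-GC B-like and plasma-like cells, with a dotted line at 50%; the B cell classes peak below it and have a second, smaller peak at full lambda, which is lowest in annotated GC B cells, and plasma-like cells peak near 0.

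Among lambda-led cells of both large classes, Iglc1 led most often. It led in 64.8%, 57.2%, 68.9% and 69.7% of lambda-led annotated GC B cells of WT, C, K and CK, or 65.1 ± 5.69%. Iglc2 led in 20.5%, 29.0%, 18.0% and 18.6%, and Iglc3 in 14.8%, 13.8%, 13.2% and 11.7%. In non-GC B-like cells Iglc1 led in 56.8 ± 2.36%, Iglc2 in 31.0 ± 2.17% and Iglc3 in 12.2 ± 1.54%. The share of Iglc1 was the highest of the 3 in all 4 libraries of both classes. In prememory cells, of which 98 had a leading lambda gene, Iglc1 led in 10, 15, 9 and 5 cells and Iglc2 in 7, 18, 8 and 12 cells of WT, C, K and CK, so that Iglc2 led more often in C and CK.

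The variable genes, which took no part in choosing these cells, were read in the same cells with all libraries pooled. Iglv1, the variable gene upstream of Iglc3 and Iglc1, had 22.5 UMIs per 100 cells in the 435 Iglc1-led annotated GC B cells (interval 18.3 to 27.5) and 18.8 in the 85 Iglc3-led cells (10.8 to 30.6). It had 9.49 in the 137 Iglc2-led cells (5.05 to 16.2) and 7.20 in the 8958 kappa-led cells (6.66 to 7.78). Iglv1 was therefore higher with Iglc1 than with Iglc2 beyond the counting intervals.

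Iglv2, which lies upstream of Iglc2, showed the reverse in the pooled counts. It had 7.30 UMIs per 100 Iglc2-led cells (interval 3.50 to 13.4), 0.46 per 100 Iglc1-led cells (0.06 to 1.66) and 0 UMIs in Iglc3-led cells, where the interval allows 4.34 per 100 cells. Few UMIs carried the Iglc2-led value, mostly from C and K. They were 0 in 18 Iglc2-led cells of WT, 5 in 40 of C and 4 in 30 of K, with the rest in CK. Iglv3, between Iglv2 and Iglc2, had 8.76 per 100 Iglc2-led cells (4.53 to 15.3), 7.06 per 100 Iglc3-led cells (2.59 to 15.4) and 2.99 per 100 Iglc1-led cells (1.59 to 5.11). Kappa variable genes, summed over 160 genes, had 39.6 UMIs per 100 kappa-led cells and 8.03 to 12.9 per 100 lambda-led cells.

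Pooled non-GC B-like cells gave the same order of Iglc1 and Iglc2. Iglv1 was at 18.9 UMIs per 100 Iglc1-led cells (912 cells) and 5.98 per 100 Iglc2-led cells (502 cells), and Iglv2 at 2.63 and 6.57. By library Iglv1 kept this order in all 4, whereas Iglv2 was at 3.73, 1.52, 1.19 and 4.33 per 100 Iglc1-led cells against 10.3, 7.69, 5.95 and 2.38 per 100 Iglc2-led cells, the reverse in CK. T-like cells had 0.28 Iglv1 and 0.04 Iglv2 UMIs per 100 cells. The libraries differ in their share of these cells, and the intervals over pooled cells cover counting error only.

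**Figure D4:**
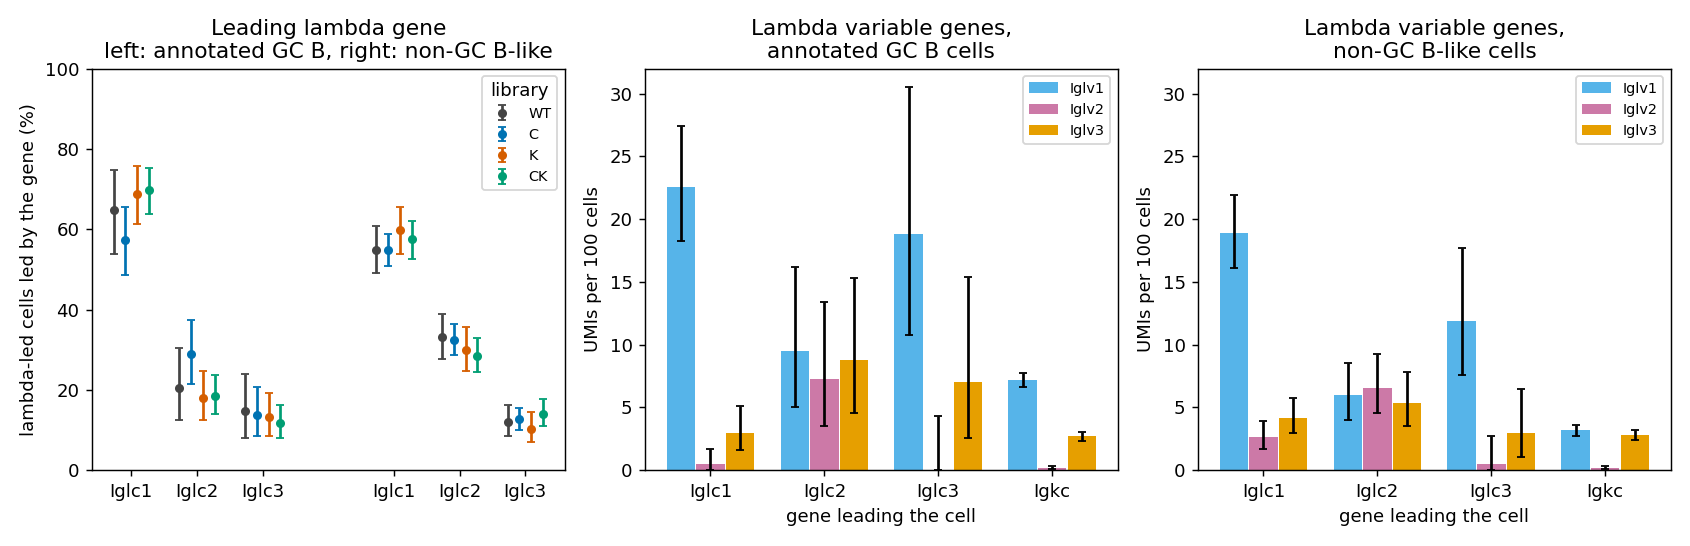
Left, percent of lambda-led cells led by Iglc1, Iglc2 and Iglc3 in annotated GC B and non-GC B-like cells, 1 point per library with exact Clopper-Pearson 95% intervals. Middle and right, UMIs per 100 cells of Iglv1, Iglv2 and Iglv3 by the gene that leads the cell, libraries pooled, with exact Poisson 95% intervals. Iglv1 is higher in Iglc1-led than in Iglc2-led cells and Iglv2 the reverse, in the pooled counts. In annotated GC B cells the Iglv2 values rest on few UMIs.

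Lambda-led and kappa-led annotated GC B cells were then compared across all genes. Each library gave 1 sum of 93 to 275 lambda-led cells, with 440854 to 1054064 UMIs, and 1 sum of 1112 to 3606 kappa-led cells. The edgeR quasi-likelihood test with the library as a block left out Igkc, Iglc1, Iglc2 and Iglc3, which had chosen the cells. CPM values of this comparison are relative to the UMIs of non-immunoglobulin genes. Of 9145 genes tested, 48 (0.525%) were higher and 86 (0.940%) were lower in lambda-led cells, or 1.47% in all at a false discovery rate (FDR) of 0.05.

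Of the list of heavy chain, variable and receptor genes, 13 could be tested, of which 3 were higher and 2 lower. The median log2 difference of the 13 was 0.06, against -0.01 over all genes tested. Ighe, Iglv2, the surrogate light chain genes Vpreb1, Vpreb2 and Igll1, and the recombinase genes Rag1 and Rag2 had too few counts to be tested. The surrogate and recombinase genes together were near 0 in these cells, with Rag1 at 6 UMIs over all sums.

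Iglv1 was higher in lambda-led cells. It was at 16.8, 20.5, 13.7 and 16.9 CPM in kappa-led cells of WT, C, K and CK and at 32.3, 45.6, 39.7 and 57.0 CPM in lambda-led cells. The groups did not overlap, and the log2 difference was 1.44 (SE 0.16, FDR 7.04e-09). Iglv3 was at 5.67, 7.78, 4.09 and 7.35 CPM against 2.31, 16.9, 7.45 and 13.5 CPM, higher in 3 of 4 libraries, and did not pass the test (log2 difference 0.76, FDR 0.325).

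On the kappa side, 2 of 160 kappa variable genes had enough counts, and both were lower in lambda-led cells. Kappa variable genes are transcribed joined to Igkc, which chose the cells, so this direction was set by that choice. Igkv1-110, nearly absent from lambda-led sums, passed the filter on counts through the kappa-led sums. The tests of these genes are therefore no separate evidence. Igkv1-110 was at 5.86, 20.4, 5.05 and 14.7 CPM in kappa-led cells and at 2.31, 0, 0 and 0 CPM in lambda-led cells, and it was lower at FDR 1.30e-06. Igkv1-117 was lower by a log2 difference of -1.89 (SE 0.39, FDR 0.00267). These genes share sequence with other members of their family, so their separate counts are uncertain.

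Gm30211, the noncoding RNA annotated across Igkc on its strand, was lower in lambda-led cells. It was at 223, 207, 179 and 161 CPM in kappa-led cells and at 143, 106, 79.5 and 69.6 CPM in lambda-led cells. The difference had the same sign in all 4 libraries, with a log2 value of -1.03 (SE 0.09, FDR 4.28e-12). Counts of Gm30211 and of Igkc cannot be told apart where the 2 annotations overlap on the same strand.

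Heavy chain genes differed less. Ighm, the constant gene of IgM, was at 3471, 2597, 3565 and 2942 CPM in kappa-led cells and at 3622, 3005, 4011 and 2986 CPM in lambda-led cells, higher in all 4 libraries by a small log2 difference of 0.10 (SE 0.03, FDR 0.0399). Ighg2b, the constant gene of IgG2b, fell by 0.61 on the log2 scale (SE 0.09, FDR 1.91e-05), from 95.3, 185, 111 and 131 CPM to 71.5, 130, 69.5 and 81.2 CPM. Its call was lost with a leading chain of at least 80% (FDR 0.175) and when thinned (FDR 0.579). Ighg3 fell by 0.35 (FDR 0.0220), lower in all 4 libraries. The call of Ighm was lost in 7 and that of Ighg3 in 5 of 12 alternative settings, among them the one without the C library (FDR 0.342 and 0.133) and the one without the K library (FDR 0.389 and 0.753).

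Ighd, the constant gene of IgD, against which the cells had been sorted, was higher in lambda-led cells. It was at 74.3, 58.6, 31.4 and 30.3 CPM in kappa-led cells and at 80.8, 106, 49.7 and 49.3 CPM in lambda-led cells, with a log2 difference of 0.60 (SE 0.13, FDR 0.00286). Prememory cells made up 10.9%, 9.74%, 2.99% and 2.44% of kappa-led cells and 22.6%, 27.3%, 11.2% and 7.64% of lambda-led cells. Without prememory cells the log2 difference of Ighd was 0.04 (FDR 0.991), and the test called 16 genes higher and 36 lower, of which 42 were among the 134 called with them. Ighd was also not called without the C library (0.49, FDR 0.184) or without the CK library (0.57, FDR 0.0621).

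The remaining receptor genes did not pass the test. Jchain, which joins secreted antibody units, had a log2 difference of -0.11 (FDR 0.201), Ighg1 of 0.14 (FDR 0.720), Igha of 0.20 (FDR 0.805) and Ighg2c of -1.55 (FDR 0.163). Cd79a and Cd79b, the signalling subunits of the receptor, had 0.02 and 0.06, and Vpreb3 had 0.00. In alternative settings, Cd79b was higher by 0.11 without prememory cells (FDR 0.0323). Jchain was lower by a log2 difference of -0.18 without a filter on low counts (FDR 0.000948) and of -0.32 with a leading chain of at least 80% (FDR 0.00105), and it was at 0.00 without prememory cells (FDR 0.998).

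**Figure D5:**
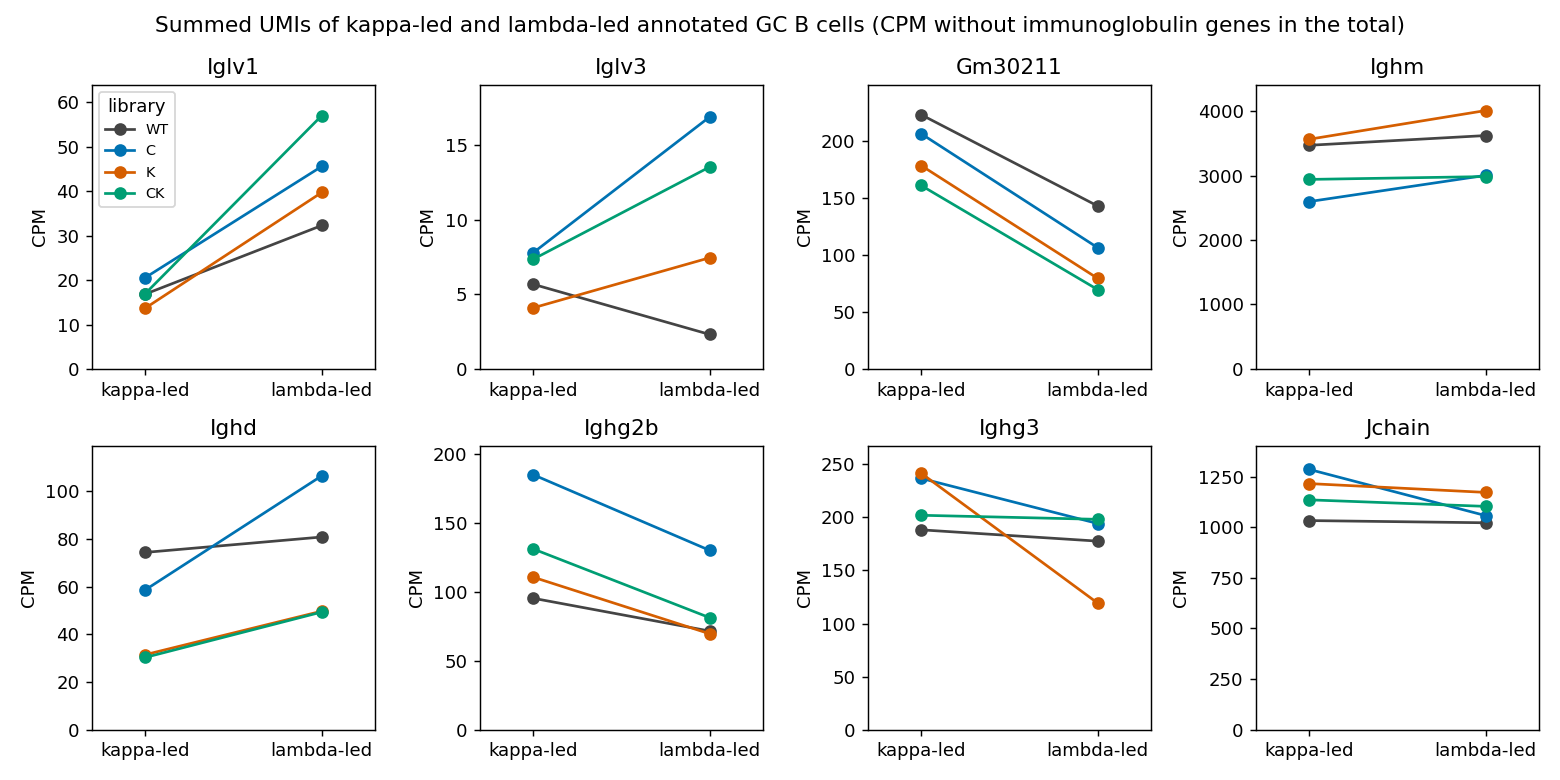
CPM (non-immunoglobulin total) of 8 genes in kappa-led and lambda-led annotated GC B cells, with the 2 sums of a library joined by a line. Iglv1 is higher and Gm30211 and Ighg2b are lower in lambda-led cells of all 4 libraries; the Ighd difference of 0.60 was 0.04 on the log2 scale without prememory cells.

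Outside the immunoglobulin genes, the 5 highest and 5 lowest differences were mostly of genes with few counts. The highest log2 differences were those of Adm (2.89), Tmcc3 (FDR 0.0308), Fam43a (1.42), Gsto1 (1.38) and Sox4 (1.35). Adm, the peptide hormone adrenomedullin, was at 18.6 CPM in lambda-led cells of K and below 5 CPM in the other lambda-led sums, and without the K library its log2 difference was 0.91 (FDR 0.908). Fam43a was at 20.8, 28.7, 11.2 and 4.83 CPM in lambda-led cells and at 8.78, 7.40, 3.83 and 3.31 CPM in kappa-led cells, higher in all 4 libraries (FDR 0.00286), and lost its call in 5 of 12 settings. Gsto1 lost its call in 8 of the 10 settings in which it was tested, Tmcc3 in 5 of 9 and Sox4 in 5 of 11. Sox4, a transcription factor of early lymphocytes, was higher in 3 of 4 libraries (FDR 0.0383).

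The lowest were Hbb-bs (-4.48), Socs7 (-2.13), Tjp3 (-1.96), Gen1 (-1.17) and Gm30211. Socs7 and Tjp3 each lost their call in 8 of 11 settings and Gen1 in 7 of 12. Hbb-bs, a beta globin of red cells, was at 332 CPM in kappa-led cells of C and at 1.24 to 5.07 CPM in the other 7 sums, so its value rests on 1 library. The 6 erythroid markers summed to 527 CPM in annotated cells of C other than prememory cells and to 39.2 to 85.1 CPM in the other libraries. Their part in this result was not tested. Without the C library Hbb-bs had too few counts to be tested, and by DESeq2 its adjusted p was 0.997.

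The genes whose level was most like that of Igkc over 34 pairs of class and library were Ighm (Pearson r = 0.947), the plasma cell chaperone gene Mzb1 (0.925), Txndc5 (0.924), Txndc11 (0.921) and Xbp1 (0.876), in log2(CPM + 1) among 2731 genes. For the lambda sum they were Erp29 (0.966), Ighm (0.910), Gm30211 (0.909), Serp1 (0.882) and Fcrla (0.877). Igkc and the lambda sum were less alike (0.828) than either was to its closest gene. These are descriptions over points that share libraries, and the plasma-like points set much of the range of Igkc. The 4 T-like points set the low end for both Igkc and the lambda sum. How far they alone give these correlations was not tested.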

How the data were processed

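Single-cell libraries of sorted splenic B220+IgD- cells, 1 per genotype, were counted by the authors with Cell Ranger. The submitters' processing notes name version 3.0, build mm10 and Seurat 4.0, and the headers of the deposited matrices give 3.0.2. The deposited matrices hold raw UMI counts of 31053 genes per barcode. The deposited cell table gives subtype names that the authors transferred in Seurat, UMI and gene counts, and the percent of mitochondrial UMIs per cell; all 9804 of its cells were found in the matrices by barcode and library. UMIs of a 3′ protocol count transcript ends and were not scaled by length. Reads shared by near-identical genes, such as Iglc2 and Iglc3, and the handling of strand are as the authors' counting left them.

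Barcodes under 8% mitochondrial UMIs were clustered in scanpy 1.11.5 (2000 variable genes, 40 components, 15 neighbours, Leiden resolution 1.5 in leidenalg 0.10.2) without immunoglobulin and mitochondrial genes. A cluster was named when at least 3 and at least 50% of the markers of 1 class reached 25% of their highest cluster level. Doublets called by Scrublet, run per library, were kept and left out in an alternative. Unannotated cells took their cluster's class. UMIs were summed per library and class and scaled to a common total (CPM). Sums were given exact Poisson intervals and shares exact Clopper-Pearson ones, and for a difference the intervals of both shares were combined. For plasma-like cells with both chains, a count of 0 was given the limit of 3 counts. Other upper bounds for a count of 0 are the upper ends of the exact intervals. These intervals and limits cover counting error only.

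The test between lambda-led and kappa-led annotated GC B cells was edgeR 4.0.16 (quasi-likelihood, Benjamini-Hochberg over all genes tested, library sizes without immunoglobulin genes), with DESeq2 1.42.0 as an alternative. The 2 sums of a library come from the same mouse, so the library was a block, with 4 pairs. The p-values cover the spread between these mice, which also differ in genotype. On counts simulated for this comparison over 9085 genes, 94% of 2-fold and 100% of 4-fold changes were recovered, with 6 unchanged genes called. Changes were placed only in genes above a minimum expected count in lambda-led sums, at a fixed dispersion not estimated from the data. Recovery for genes with few counts was therefore not measured.

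Named genes were the 4 constant genes, a list of heavy chain, variable and receptor genes, the 5 highest and 5 lowest called log2 differences without immunoglobulin and mitochondrial genes, and the 5 genes most like Igkc and the lambda sum among genes of at least 50 CPM. The members and lists were chosen with earlier results of these data known. Alternatives were the UMI minimum (3 or 20), a leading chain of at least 80%, thinning to 2000 UMIs, subtraction of the T-like level, doublets and unannotated GC cells, scaling, filters and single libraries. Those without prememory cells, on thinned cells with both chains, on cluster weights, on prememory cells by cluster and on T-like doublets were chosen after seeing the data. Gene positions and sequences were read from the annotation and transcript sequences of GENCODE vM21, with mm10 coordinates, and sequences were aligned with Biopython 1.88. Protein sequences were not used here. Other tools were Python 3.11.15, numpy 2.4.6, scipy 1.17.1, pandas 2.3.3, matplotlib 3.10.9 and R 4.3.3.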

Additional observations from a re-analysis of the deposited data

Results flagged for a closer look

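The difference of a mutant library from WT in the share of lambda-led cells was larger in non-GC B-like than in annotated GC B cells. It was 3.42 points larger in C, 5.24 points in K and 6.73 points in CK, since the GC share was slightly below WT and the non-GC B-like share above WT in all 3. The interaction was not tested, and the 3 values share 1 WT library. Thinned to 2000 UMIs, non-GC B-like shares were 13.6%, 13.7%, 15.5% and 19.4% in WT, C, K and CK, with shallow cells left out. Annotated GC B cells then had 7.06%, 6.46%, 6.82% and 6.77%, so the excess in C and K was smaller than without thinning. Weighting the non-GC B-like clusters as in WT changed the mutant minus WT differences there to 3.26, 1.49 and 4.29 points. The cluster with Vpreb3 among its leading genes held 32.7% of led non-GC B-like cells for WT, 29.4% for C, 53.3% for K and 43.7% for CK.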

How the results depend on the processing

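No paired analysis by replicate number was possible because the labels give none, and the test of lambda-led against kappa-led cells pairs the 2 sums of each mouse by design. The mean lambda-led share of annotated GC B cells, 7.15%, was 6.62% with at least 20 UMIs, 4.04% with a leading chain of at least 80%, 8.35% with the T-like level subtracted and 6.72% with unannotated GC B-like cells added. The share of prememory cells in GC B-like clusters was 6.67% as a mean over 3 libraries (SD 11.5), which rests on 11 led cells. The share of non-GC B-like cells was 15.6% when thinned. Their mean difference from GC B cells, 13.1 points, was 18.4 at 80% and 8.77 when thinned, and that of prememory from other annotated cells, 11.8 points, was 17.3 at 80%. The difference C minus WT among non-GC B-like cells was 0.13 points when thinned.

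The Igkc level ratio of non-GC B-like to GC B cells turned from 1.34 to 0.57 per cell, and that of lambda went from 3.19 to 1.33. Plasma-like over GC B was 42.1 for Igkc and 6.45 for lambda on the non-immunoglobulin scale, 66.4 and 10.1 per cell, and 24.9 for Igkc with the T-like level subtracted. Cells with both chains went from 24.3% to 9.69% of annotated GC B cells at 20 UMIs of each and to 9.41% when thinned, from 42.4% to 17.2% and 30.7% of prememory cells, and from 35.8% to 11.8% of non-GC B-like cells at 20 UMIs. With 1 lambda gene at 80% or more of the lambda UMIs, Iglc1, Iglc2 and Iglc3 led in 79.5%, 11.3% and 9.25% of such GC B cells and in 75.4%, 17.7% and 6.99% of non-GC B-like cells.

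The 48 higher and 86 lower genes were 16 and 19 by DESeq2, 14 and 8 when thinned, 16 and 36 without prememory cells, 39 and 28 at 80%, and 44 and 238 without a filter. Leaving out 1 library gave 17 to 41 higher (17 without C, 24 without CK) and 35 to 53 lower (45 without WT, 35 without C, 52 without K, 53 without CK). The calls of Iglv1 and Gm30211 held in all 12 alternatives, but neither gene is independent of those that chose the cells. Gm30211 is annotated across Igkc on its strand, and Iglv1 is a variable gene that joins to lambda constant genes. Depth limits the variable genes, since 3′ reads seldom reach them. The cause of these shifts was not tested, apart from the cells or genes each setting leaves out.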

Other observations

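Lambda-led shares by leading heavy chain gene were also read in annotated GC B cells. Among Ighm-led cells lambda led in 7.63% for WT, 9.26% for C, 7.12% for K and 6.94% for CK. Without prememory cells it led in 6.69%, 7.49%, 6.47% and 6.46% of Ighm-led cells in the same order. Among Ighg1-led cells lambda led in 2 of 33, 0 of 85, 18 of 172 and 9 of 118 cells, where 0 of 85 has an upper bound of 4.25%. Without prememory cells the WT count was 1 of 32 and the others did not change. The K library had the highest Ighg1-led share (10.5%, interval 6.32 to 16.0%). In lambda-led plasma-like cells the counts are too few for a split by heavy chain.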
